A study of Mus musculus with 12 samples.

Results

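The promoters of the wild type embryonic forebrain were sorted by 2 chromatin marks that exclude each other on the same residue, trimethylation and acetylation of lysine 27 of histone H3 (H3K27me3 and H3K27ac). The comparison used 2 of the 12 libraries of the series, the wild type H3K27me3 library and the wild type H3K27ac library, with 1 library a side. Both came from untreated forebrain tissue of C57BL/6 mouse embryos at stage E12.5 and were made by CUT&Tag, in which an antibody directs a transposase to cut the DNA around the mark. Wild type IgG, RNA polymerase II (RNA-Pol2), Eed and input libraries of the same tissue and day served as control or second readout, as did 1 IgG library labelled EedcKO, the mutant genotype of the series. The sources used here do not give the number or sex of the embryos behind a library. Without replicates no p-value could be given, and intervals below are for counting error.

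Polycomb repressive complex 2 (PRC2), which contains Eed, writes H3K27me3, and promoters that carry it broadly are held silent. H3K27ac is written by acetyltransferases such as Ep300 and Crebbp at promoters and enhancers of transcribed genes. In the developing forebrain, the genes of other body regions and later cell types are classic Polycomb targets, while housekeeping promoters carry acetylation. In bulk tissue, a window with both marks in the same cells cannot be told apart from one with each mark in different cells, nor fewer marked cells from less mark per cell.

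Each of 55385 promoter windows, nearly all 2 kb long and centred on a start site, was given a class from its CPM, the count divided by the library total and multiplied by 1e6. A mark was called at 10 CPM or more and at 2 times the IgG level or more, both with 1 CPM added. Windows with H3K27me3 alone are called repressed, with H3K27ac alone active, with both mixed and with neither unmarked. These names stand for marks and not for measured RNA. By this rule 2790 windows (5.04%) were repressed, 6970 (12.6%) active, 1022 (1.85%) mixed and 44603 (80.5%) unmarked. Among the 21421 windows of protein-coding genes, 1932 (9.02%) were repressed, 5435 (25.4%) active, 732 (3.42%) mixed and 13322 (62.2%) unmarked.

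The bases in front of the start site are shown for genes that stand at the extremes of the classes, so that the promoters behind the counts can be read. They were the highest-ranked members whose RefSeq promoter lay within 100 bp of the window centre and in no other RefSeq gene, with Alb, the serum albumin gene of liver, chosen after its values were seen for the unmarked class. Each run is 250 bases long, 5′ to 3′, from RefSeq on GRCm38.p6, and capitals mark every CG pair. Otp lies at chr13:94875386-94875635 on the plus strand, Hoxb8 at chr11:96281655-96281904 on the plus strand, Cldn34c1 at chrX:123103273-123103522 on the plus strand and Cenpi at chrX:134307834-134308083 on the plus strand. Arid1a lies at chr4:133756770-133757019 on the minus strand, Nfil3 at chr13:52981040-52981289 on the minus strand and Alb at chr5:90460620-90460869 on the plus strand.
Otp: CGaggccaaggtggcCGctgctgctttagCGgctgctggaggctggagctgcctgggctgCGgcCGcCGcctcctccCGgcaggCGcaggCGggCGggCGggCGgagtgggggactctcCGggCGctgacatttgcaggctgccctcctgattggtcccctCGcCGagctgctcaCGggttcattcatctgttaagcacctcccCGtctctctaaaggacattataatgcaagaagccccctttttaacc
Hoxb8: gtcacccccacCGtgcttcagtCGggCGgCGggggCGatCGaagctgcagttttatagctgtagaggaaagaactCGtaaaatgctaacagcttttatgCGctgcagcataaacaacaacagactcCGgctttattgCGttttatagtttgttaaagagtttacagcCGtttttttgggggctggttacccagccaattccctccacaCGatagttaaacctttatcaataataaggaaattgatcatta
Cldn34c1: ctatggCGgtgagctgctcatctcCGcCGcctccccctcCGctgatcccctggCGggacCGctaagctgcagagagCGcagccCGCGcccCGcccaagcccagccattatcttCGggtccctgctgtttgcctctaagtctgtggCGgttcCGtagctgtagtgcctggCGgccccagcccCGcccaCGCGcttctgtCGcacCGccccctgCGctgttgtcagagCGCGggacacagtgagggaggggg
Cenpi: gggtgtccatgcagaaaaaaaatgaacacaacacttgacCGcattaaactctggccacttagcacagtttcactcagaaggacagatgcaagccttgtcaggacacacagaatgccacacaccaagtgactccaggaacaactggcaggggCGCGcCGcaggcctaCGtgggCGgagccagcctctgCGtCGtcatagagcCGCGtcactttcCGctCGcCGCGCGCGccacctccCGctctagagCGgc
Arid1a: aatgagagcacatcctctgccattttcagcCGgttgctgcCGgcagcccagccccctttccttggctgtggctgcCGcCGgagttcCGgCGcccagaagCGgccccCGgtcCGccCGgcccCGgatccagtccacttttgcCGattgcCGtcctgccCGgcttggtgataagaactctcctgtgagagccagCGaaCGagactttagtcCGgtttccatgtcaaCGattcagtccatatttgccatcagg
Nfil3: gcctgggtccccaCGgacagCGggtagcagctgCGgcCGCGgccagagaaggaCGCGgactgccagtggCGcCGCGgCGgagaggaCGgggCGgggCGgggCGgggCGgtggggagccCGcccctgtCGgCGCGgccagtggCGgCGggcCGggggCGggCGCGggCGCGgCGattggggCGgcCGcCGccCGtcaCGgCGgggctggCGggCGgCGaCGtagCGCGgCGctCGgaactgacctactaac
Alb: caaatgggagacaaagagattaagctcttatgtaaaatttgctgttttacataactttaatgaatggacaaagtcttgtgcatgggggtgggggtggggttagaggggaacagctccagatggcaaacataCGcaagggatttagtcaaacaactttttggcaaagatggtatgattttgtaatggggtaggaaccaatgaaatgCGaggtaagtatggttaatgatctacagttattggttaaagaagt

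Repressed Otp and Hoxb8 held 18 and 12 CG pairs, active Cldn34c1 and Cenpi 22 and 18, mixed Arid1a and Nfil3 18 and 43, and unmarked Alb 2. The median over 32851 promoters of the RefSeq table was 6, with quartiles of 2 and 16. All but Alb and Hoxb8 lay above the upper quartile. These are single promoters, and base composition was not compared between classes, because only 58.1% of the protein-coding windows matched a RefSeq promoter at this distance.

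H3K27me3 spread over a far wider range of levels than H3K27ac. Repressed windows had a median of 121 CPM of H3K27me3 (quartiles 69.3 and 232) beside 20.6 CPM of H3K27ac and 20.5 CPM of IgG. Active windows had 43.7 CPM of H3K27ac (33.9 and 54.5) beside 13.0 CPM of H3K27me3 and 14.2 CPM of IgG. Mixed windows had 34.2 CPM of H3K27me3 and 38.6 CPM of H3K27ac beside 10.6 CPM of IgG, the lowest IgG level of the 4 classes. Unmarked windows had 6.96, 10.3 and 18.4 CPM. The totals were 3161526 counts for H3K27me3, 1944323 for H3K27ac and 1412310 for IgG, and the median window of both marks lay below that of IgG (8.22 and 13.4 against 17.7 CPM). At 10 CPM a call therefore rested on 31.6 H3K27me3 or 19.4 H3K27ac reads. The totals of the RNA-Pol2, Eed, input and EedcKO IgG libraries were 2482297, 1972842, 1018763 and 1564905.

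The log2 ratio of H3K27me3 to H3K27ac is given relative to its median of -0.70 over the 45177 windows with at least 20 reads in both libraries together. On this scale H3K27me3 was at least 2-fold higher at 7655 windows (16.9%) and H3K27ac at 5336 (11.8%). Scaled by library totals alone, the split was 3944 (8.73%) against 16657 (36.9%), so the share on each side depends on the scaling. Intervals of single ratios are exact 95% Clopper-Pearson intervals and cover counting error only.

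**Figure D1:**
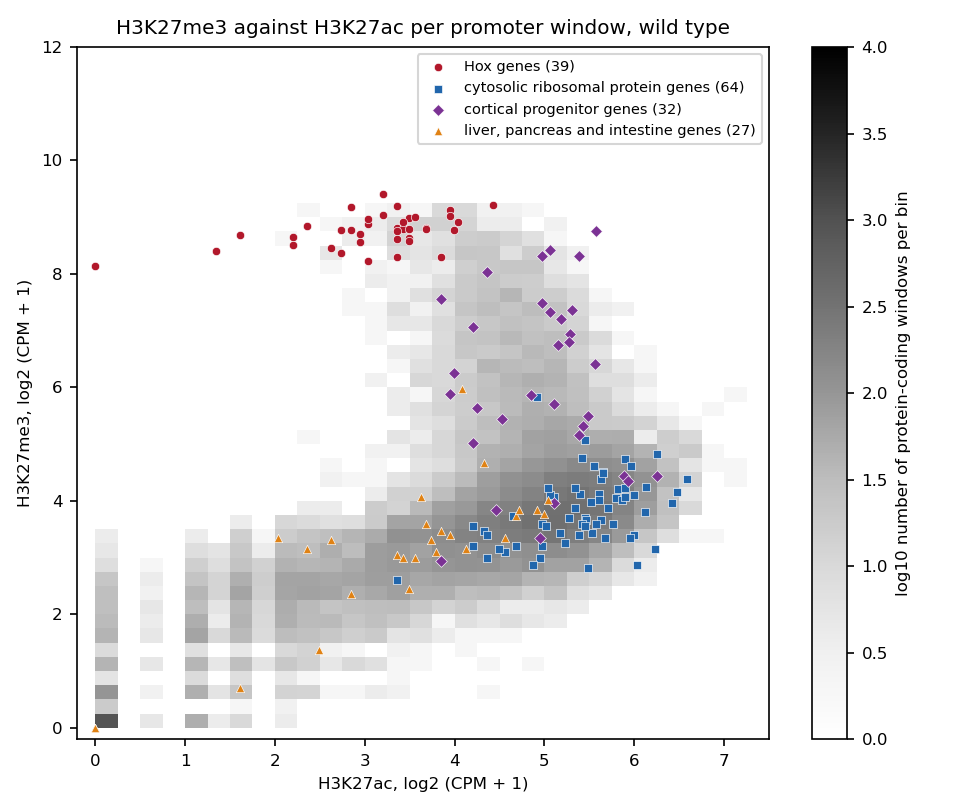
H3K27me3 against H3K27ac at protein-coding promoter windows, both as log2 (CPM + 1), 1 library each; grey shade is the number of windows per bin on a log10 scale and coloured points are members of 4 gene lists. The 39 Hox genes sit at the top left (median 438 CPM of H3K27me3 and 9.26 CPM of H3K27ac) and the 64 ribosomal protein genes at the lower right (12.2 and 43.5 CPM). The 32 cortical progenitor genes reach from the ribosomal range toward the Hox genes. Their largest relative log2 ratio of H3K27me3 to H3K27ac, 4.41, stays below the smallest Hox ratio, 5.14.

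The repressed promoters with the most extreme ratios included Otp and 7 Hox genes. Otp, a homeobox regulator of hypothalamic neurons (chromosome 13, 94874602 to 94876601), held 1102 H3K27me3 counts, 0 H3K27ac counts and 20 IgG counts. Hoxb8 (chromosome 11, 96280905 to 96282904) held 883, 0 and 18. With 0 read as up to 3 counts per library, H3K27me3 was at least 366-fold higher at Otp and 293-fold higher at Hoxb8, relative to the median window. Both held fewer H3K27ac than IgG counts, and Otp held 32 RNA-Pol2 counts.

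Hoxb7 held 1300 H3K27me3 and 4 H3K27ac counts (relative log2 ratio 7.77, interval 6.98 to 10.22). Hoxd1 held 1072 and 3 counts (7.76, 6.92 to 10.75). Sim2, a transcription factor gene of the Sim family, held 1833 and 9 (7.38, 6.74 to 8.80), and Foxe1, a thyroid regulator, 1661 and 8 (7.38, 6.71 to 8.91). The other members of the top 10 were Hoxc8 (1445 and 8), Hoxa2 (1274 and 7), Hoxc9 (1840 and 12) and Hoxb2 (1152 and 7). At all 10 genes H3K27ac lay below IgG, and RNA-Pol2 held between 15 and 63 counts. All 10 stayed repressed with every other level rule tried, but 8 of them held no H3K27me3 summit, the exceptions being Hoxd1 and Foxe1, while 63.0% of all repressed windows and 6.4% of all windows held one.

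**Figure D2:**
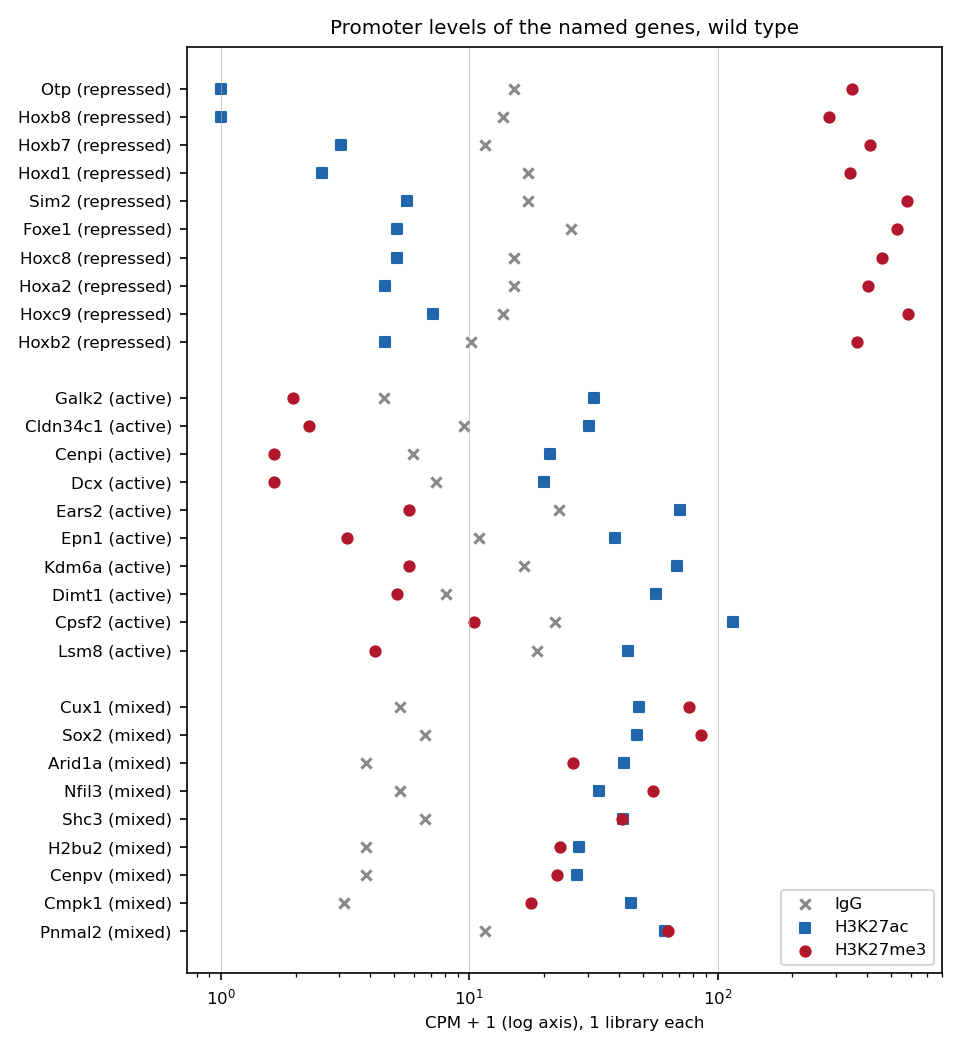
CPM + 1 on a log axis for H3K27me3, H3K27ac and IgG at the 10 repressed, 10 active and 9 mixed genes named from the ranking, 1 library each. At the repressed genes H3K27ac lies left of IgG and H3K27me3 far to the right. At the active genes H3K27me3 lies left of IgG, and at the mixed genes both marks lie right of it.

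The Hox genes, which specify position along the trunk and hindbrain, carried H3K27me3 throughout. Of 39 windows 38 were repressed and Hoxa3 was mixed, with relative ratios from 5.14 to 8.83. Hoxa3 held 1380 H3K27me3, 29 H3K27ac and 5 IgG counts, and its H3K27ac count passed the rule beside the low IgG count; with the EedcKO IgG library (24 counts) it was repressed. Their H3K27ac median of 9.26 CPM lay below their IgG median of 14.9 CPM. No Hox window held an H3K27ac or RNA-Pol2 summit, 31 held an Eed summit, and 4 held an H3K27me3 summit. Among all protein-coding windows these shares were 21.7% for H3K27ac, 10.3% for RNA-Pol2, 54.8% for Eed and 12.6% for H3K27me3.

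Regulators of midbrain, hindbrain and spinal cord were repressed at 39 of 40 windows, with a median of 446 CPM of H3K27me3. Nkx2-2, a ventral neural tube regulator, held 1431 H3K27me3 and 10 H3K27ac counts (6.90, 6.27 to 8.22), and Evx1, a spinal interneuron regulator, 1462 and 12 (6.71, 6.11 to 7.88). Prdm13, Lbx1 and Olig3, regulators of dorsal spinal cord neurons, held 1214, 2108 and 1491 H3K27me3 counts beside 14, 26 and 21 H3K27ac counts. The exception was Lhx4, a motor neuron regulator, which had 255 H3K27me3 counts but also 59 IgG counts, and which missed the 2-fold rule.

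Regulators of lineages outside the nervous system were repressed at 47 of 61 windows, unmarked at 11, mixed at 2 and active at 1. Tfap2a, a neural crest and ectoderm factor, held 1277 H3K27me3 and 8 H3K27ac counts (7.0, 6.33 to 8.53). Foxd1, a kidney stroma factor, Tbx15, a limb and skeletal factor, and Pax1, a sclerotome factor, held 1524, 1448 and 1269 against 14, 14 and 15. The muscle factor Myog and the bone factor Runx2 were unmarked, with 48 and 15 H3K27me3 counts beside 68 and 34 IgG counts. Tbx6, a paraxial mesoderm factor, was the active exception with 46 H3K27me3, 89 H3K27ac and 136 RNA-Pol2 counts, and it held an H3K27ac summit. Gata6, an endoderm factor, was mixed with 1508 H3K27me3, 39 H3K27ac and 12 IgG counts.

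Ventral forebrain and interneuron regulators, which act within the tissue profiled, were repressed at 22 of 29 windows, mixed at 5 and unmarked at 2. Gsx2 and Gsx1, patterning factors of the ganglionic eminences, held 1232 and 1287 H3K27me3 counts beside 16 and 22 H3K27ac counts. Of the mixed members, Dlx5 held 486 H3K27me3, 47 H3K27ac and 12 IgG counts, Dlx2 516, 57 and 17, and Gad2, which makes GABA, 626, 93 and 29. Gad2 held summits of both marks and stayed mixed with the other IgG library. Ratios of the list ran from -0.65 to 9.14, far wider than in the Hox list.

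Secreted signals were mostly repressed, while their receptors and transducers were divided among the classes. Of 43 genes for WNT, FGF, BMP and hedgehog ligands and cortical hem factors, 36 were repressed, 2 mixed, 5 unmarked and 0 active. Fgf8, made by the anterior patterning centre, held 1467 H3K27me3 and 13 H3K27ac counts (6.61, 6.03 to 7.72), Wnt3 1353 and 18, and Ihh 1712 and 34. Wnt7b and Fgf15, ligands made by cortical cells, were the mixed members, with 659 and 379 H3K27me3 counts beside 64 and 56 H3K27ac counts. Of 38 receptors and transducers, 12 were repressed, 14 active, 6 mixed and 6 unmarked. The frizzled receptor gene Fzd10 (981 H3K27me3, 33 H3K27ac counts), the hedgehog receptor gene Ptch1 (355 and 33) and the transducer gene Lef1 (678 and 67) were repressed. Apc, a scaffold of WNT signalling (19 and 107), and Smad4, the shared BMP and TGF-β transducer (18 and 79), were active. With the EedcKO IgG library 13 of the 38 were repressed and 6 active, and at 3 times IgG 14 and 8. Over all 21421 protein-coding windows the main rule gave 1932 (9.02%) repressed and 5435 (25.4%) active. The EedcKO IgG library gave 1953 and 3130 of them, and 3 times IgG 1679 and 2658. The difference between both lists was not tested.

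Among smaller groups, 4 of 7 CDK inhibitor windows were repressed, among them Cdkn2a with 1123 H3K27me3 and 28 H3K27ac counts, while Cdkn1b was active with 65 and 103. Of 35 imprinted genes 14 were repressed, 2 active and 19 unmarked; Dio3 and Dlk1, of the same imprinted domain, held 993 and 562 H3K27me3 counts beside 18 and 26 H3K27ac counts. Windows do not separate alleles. Of 83 potassium channel windows 36 were repressed, 6 active and 3 mixed. By symbol, 14 of 16 Nkx, 11 of 12 LIM homeobox, 14 of 18 T-box, 7 of 9 Pax and 26 of 47 Forkhead windows were repressed, against 6 of 28 Sox windows. Over all protein-coding windows 9.02% were repressed. Antisense and overlapping transcripts are counted in the Nkx, T-box, Forkhead, Sox and potassium channel windows. Most such transcripts of the Sox group, among them Sox2ot and Sox5it, were unmarked.

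Neighbouring windows of 1 class formed runs along chromosomes, in the repressed and in the active class. With start sites at most 50 kb apart, 144 runs of at least 3 neighbouring repressed windows held 586 windows, 21.0% of the class, beside 464 active runs with 1650 windows (23.7%) and 36 mixed runs with 120 (11.7%). The 5 longest repressed runs lay in the Hox clusters, and the longest active run held 10 windows. The HoxA cluster gave 22 windows on chromosome 6 (52220854 to 52315831, from Hoxa7 to Evx1os) and 15 windows (52155902 to 52209721), parted by Hoxa3. HoxB on chromosome 11 gave 20 windows over 190 kb, HoxC on chromosome 15 20 over 185 kb, and HoxD on chromosome 2 20 over 105 kb. In these 5 runs 9 windows held an H3K27me3 summit. The next were 9 windows at H2-T3 on chromosome 17, where near-identical copies make the counts uncertain, and 8 at Six3, an anterior forebrain regulator. Overlapping windows share reads: with 1 window kept of each overlapping group, 77 runs remained.

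Active promoters showed less extreme ratios, set by few H3K27me3 reads. Galk2, a galactokinase gene whose window overlaps that of Cops2 (chromosome 2, 125858109 to 125860108), held 3 H3K27me3, 60 H3K27ac and 5 IgG counts (relative log2 ratio -3.34, interval -6.65 to -2.71). Cldn34c1 held 4 and 57 (-3.05, -5.76 to -2.40), with related gene copies nearby that may share reads. Cenpi, a kinetochore gene, held 2 and 39, and Dcx, the microtubule gene of migrating neurons, 2 and 37. Kdm6a, which removes H3K27me3, held 15 and 131 (-2.88, -4.01 to -2.36) beside 104 RNA-Pol2 counts.

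The remaining members were Ears2 (15 and 135 counts), Epn1 (7 and 73), Dimt1 (13 and 108), Cpsf2 (30 and 223) and Lsm8 (10 and 83). Cpsf2, a gene of messenger RNA 3′-end processing, had the highest H3K27ac count of the 10. The range of the class was narrow. The highest H3K27ac level of any active window was 135 CPM, and the highest H3K27me3 level of any repressed window was 701 CPM. Of the 10, 4 (Cldn34c1, Cenpi, Dcx and Kdm6a) lie on the X chromosome, which held 191 of 5435 active protein-coding windows (3.51%); the 10 were picked by extreme ratios at 2 to 30 H3K27me3 counts. With the EedcKO IgG library, Galk2 and Cenpi were no longer active.

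Of 3 housekeeping lists most members were active and none was repressed, beside 25.4% active and 9.02% repressed over all protein-coding windows. Of 40 proteasome, splicing and translation genes 30 were active, 4 mixed and 6 unmarked; Srsf3, a splicing factor gene, held 16 H3K27me3 and 101 H3K27ac counts (-2.43, -3.53 to -1.90), and Psmd11, of the proteasome lid, 24 and 106. Of 64 cytosolic ribosomal protein genes 43 were active, 10 mixed and 11 unmarked; Rps23 held 20 and 125 (-2.46, -3.41 to -1.96), Rpl32 25 and 144. Unmarked members such as Rps14 (100 H3K27ac, 39 IgG counts) and Rps12 (58 and 24) had H3K27ac counts of the active range but did not reach 2 times their IgG level. Of 44 nuclear respiratory chain genes 25 were active and 17 unmarked, with Ndufa5 (27 and 103) and Uqcrc2 (24 and 95, beside 34 IgG counts) as an example of each. With the EedcKO IgG library 24 of the 40, 37 of the 64 and 16 of the 44 were active, and at 3 times IgG 19, 35 and 15. Under either setting 1 ribosomal protein window was repressed. Active windows among all 21421 protein-coding ones numbered 5435 by the main rule, 3130 with the EedcKO IgG library and 2658 at 3 times IgG. By symbol, which also takes in pseudogenes, 40 of 83 mitochondrial ribosomal protein windows (41 unmarked) and 130 of 419 windows of zinc finger genes named Zfp were active.

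Cell cycle and DNA replication genes were active at 18 of 42 windows, mixed at 5, unmarked at 18 and repressed at 1. The shares over all protein-coding windows were 25.4% active, 3.42% mixed, 62.2% unmarked and 9.02% repressed. Rfc4, a clamp loader gene, held 20 H3K27me3 and 76 H3K27ac counts, and Aurka, a mitotic kinase gene, 39 and 106. The repressed member was Cdk6, with 164 H3K27me3, 18 H3K27ac and 10 IgG counts (3.06, 2.48 to 3.97) and an H3K27me3 summit.

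Many genes that write and erase the mark were called for acetylation themselves, but fewer with the other control, as over all protein-coding windows. Of 13 PRC2 genes 9 were active, among them Eed (31 H3K27me3 and 130 H3K27ac counts), the methyltransferase gene Ezh2 (36 and 114) and Rbbp4 (44 and 111). Suz12 was unmarked with 28 and 52 counts beside 20 IgG counts. Epop, an accessory subunit, was the mixed exception with 738 and 41 counts beside 12 in IgG (4.10, 3.71 to 4.65). Of 26 demethylase, acetyltransferase, deacetylase and Trithorax genes 17 were active, 4 mixed, 5 unmarked and 0 repressed. The deacetylase gene Hdac2 held 32 and 221 (-2.67, -3.38 to -2.25), and the acetyltransferase gene Ep300 48 and 128. With the EedcKO IgG library, 5 of the 13 and 9 of the 26 were active, and at 3 times IgG 5 and 11. PRC1 genes were divided: 5 of 20 were active, 2 repressed, 6 mixed and 7 unmarked. With the EedcKO IgG library 2 of the 20 were active and 5 repressed, and at 3 times IgG 3 and 6. Of all 21421 protein-coding windows 5435 (25.4%) were active and 1932 (9.02%) repressed by the main rule. In the same set 3130 were active and 1953 repressed with the EedcKO IgG library, and 2658 and 1679 at 3 times IgG. Cbx8 (1086 H3K27me3, 55 H3K27ac counts) and Bmi1 (296 and 30) carried H3K27me3, and Phc3 (35 and 113) and Rnf2 (30 and 79), the E3 ligase gene, did not.

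**Figure D3:**
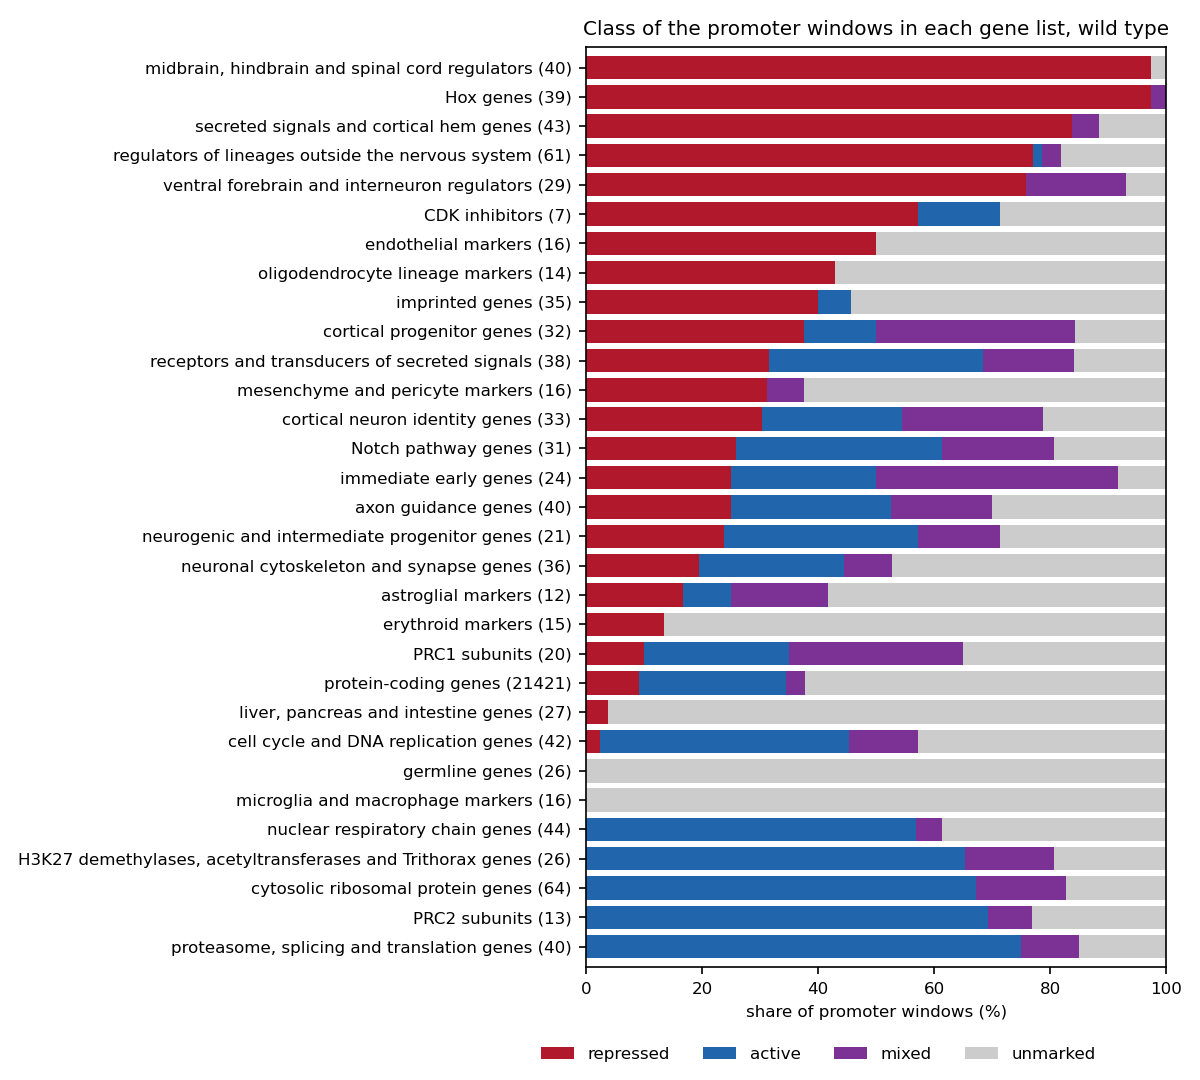
Share of windows in each class for the 30 gene lists and, for comparison, all protein-coding genes, in percent; the number of windows is in parentheses. Lists run from 97.5% repressed (midbrain, hindbrain and spinal cord regulators) to 75% active (proteasome, splicing and translation genes), with the widest mixed share (41.7%) in the immediate early genes.

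Mixed calls depended on the control library more than any other class. Of the 1022 mixed windows, 75 (7.34%) stayed mixed when the EedcKO IgG library took the place of wild type IgG, 220 (21.5%) held summits of both marks, and 19 met both conditions. For repressed windows these shares were 86.6% and 61.7%, and for active windows 42.9% and 55.1%. Mixed windows held a median of 15 wild type IgG and 38 EedcKO IgG counts. With 3 times IgG in place of 2 there were 235 mixed windows, and with the marks scaled to the median of IgG there were 5582. Under that scaling the calls of several lists moved toward mixed: 23 of 32 cortical progenitor, 17 of 24 immediate early and 28 of 64 ribosomal protein windows were mixed, while 38 of 39 Hox windows were repressed. The counts of mixed genes are to be read with this range.

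The mixed genes with the largest lower value of both ratios to IgG included neural regulators. Cux1, of upper cortical layers, held 239 H3K27me3, 92 H3K27ac and 6 IgG counts. Sox2, of neural progenitors (chromosome 3, 34649405 to 34651404), held 267, 90 and 8. Nfil3 (170, 63 and 6), Shc3 (127, 79 and 8) and Pnmal2 (196, 118 and 15) followed the same pattern. Arid1a, a chromatin remodeller gene (80, 80 and 4), H2bu2 (70, 52 and 4), Cenpv (68, 51 and 4) and Cmpk1 (53, 85 and 3) also ranked among the 10. Those last 4 genes were no longer mixed with the EedcKO IgG library, where they held 22, 21, 34 and 22 counts, while the other 5 named here were.

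The 19 windows that stayed mixed with either IgG library and held both summits were listed after their values were seen. They included Sox2, Gad2, Alcam (119 H3K27me3 and 88 H3K27ac counts), Arf3 (265 and 113), Ahnak (345 and 85), Cdc42ep3 (214 and 113) and Rpl22 (103 and 83). Sox6 (349 and 78) and 1110004F10Rik, which start close together in overlapping windows, and Sox6os (169 and 115) were also among them. Their median levels were 67.7 CPM of H3K27me3 and 46.3 CPM of H3K27ac.

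Cortical progenitor genes had the marks of both sides. Of 32 windows 12 were repressed, 11 mixed, 4 active and 5 unmarked, with medians of 66.9 CPM of H3K27me3 and 32.9 CPM of H3K27ac. Protein-coding windows as a whole were 9.02% repressed, 3.42% mixed, 25.4% active and 62.2% unmarked. Nr2f2, a caudal patterning factor, held 592 H3K27me3, 26 H3K27ac and 6 IgG counts, and Pax6, of dorsal progenitors, 999, 59 and 16. Emx1, of the dorsal telencephalon, was called repressed with 1370 and 91 counts because IgG held 40, although summits of both marks lay in its window. Dmrta2 held 1006 and 79, and Otx2, of the early rostral brain, 829 and 38. H3K27ac was above the Hox median at the genes with the 6 largest ratios, with 26 to 91 counts against 18. The ranges overlapped: as log2 (CPM + 1), H3K27ac was 3.85 at Nr2f2 and 4.36 at Otx2, below 4.43 at Hoxd10. With the EedcKO IgG library the list held 18 repressed, 4 mixed, 1 active and 9 unmarked windows.

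The 12 forebrain markers set to check the tissue label divided likewise: 6 were mixed (Emx2, Pax6, Sox2, Dlx2 and Tubb3 among them), 5 repressed (Emx1, Lhx2, Six3, Otx1 and Tbr1) and 1 active (Nes, with 123 H3K27me3 and 82 H3K27ac counts). H3K27ac held 22 counts at Six3 and 34 to 99 at the other 11. RNA was not measured, so the marks alone do not test the label.

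Neurogenic and neuronal lists held members of all 4 classes. For comparison, 9.02% of the 21421 protein-coding windows were repressed, 25.4% active, 3.42% mixed and 62.2% unmarked. In the same set 1953 were repressed and 3130 active with the EedcKO IgG library, and 1679 and 2658 at 3 times IgG. Of 21 neurogenic and intermediate progenitor genes 5 were repressed, 7 active, 3 mixed and 6 unmarked. The repressed members were the transcription factor genes Eomes (778 H3K27me3, 19 H3K27ac counts), Neurog1 (1314 and 39), Neurod1 (517 and 33), Neurog2 (825 and 57, with an H3K27ac summit) and Nhlh2 (370 and 30). Of the 21, 7 were repressed and 4 active with the EedcKO IgG library, and 5 and 2 at 3 times IgG. Of 33 cortical neuron identity genes 10 were repressed, 8 active, 8 mixed and 7 unmarked. Fezf2, of subcortical projection neurons, held 646 and 32. The early neuronal factor Sox11 was active with 37 and 126 (-1.68, -2.34 to -1.24).

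Of 36 neuronal cytoskeleton and synapse genes 7 were repressed, 9 active, 3 mixed and 17 unmarked. The vesicular transporter genes of glutamate and GABA, Slc17a7 (699 and 33), Slc17a6 (444 and 43) and Slc32a1 (946 and 50), were repressed, as was the neurofilament gene Nefl (574 and 48). Dcx (2 and 37) and Gap43 (14 and 64), of growing neurites, were active. Notch pathway genes were repressed at 8 of 31 windows and active at 11: the ligand Dll4 held 1310 and 23 and the target Hes3 921 and 46, against 27 and 93 at Mib1, which acts in ligand uptake. Of these 31, 11 were repressed and 7 active with the EedcKO IgG library, and 9 and 6 at 3 times IgG. Axon guidance genes fell in every class (10 repressed, 11 active, 7 mixed, 12 unmarked), with Slit3 at 664 and 47 and Robo3 at 738 and 52. For comparison, 9.02% of the 21421 protein-coding windows were repressed, 25.4% active, 3.42% mixed and 62.2% unmarked. In the same set 1953 were repressed and 3130 active with the EedcKO IgG library, and 1679 and 2658 at 3 times IgG.

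Immediate early genes held the largest mixed share of the 30 lists, 10 of 24, with 6 repressed, 6 active and 2 unmarked. Among all protein-coding windows 3.42% were mixed, 9.02% repressed, 25.4% active and 62.2% unmarked. Egr4, Egr2 and Egr3 were repressed with 853, 945 and 756 H3K27me3 counts beside 30, 37 and 34 H3K27ac counts. Junb was mixed with 411, 56 and 16 counts of H3K27me3, H3K27ac and IgG. With the EedcKO IgG library 10 of the 24 were repressed, 2 active, 12 unmarked and 0 mixed.

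Unmarked was the commonest class, with 62.2% of protein-coding windows, and genes of other organs and several large gene families fell in it almost whole. All 26 germline genes, all 16 microglia and macrophage markers and 26 of 27 liver, pancreas and intestine genes were unmarked, the exception being Sst, which encodes somatostatin, made also by neurons (195 H3K27me3, 31 H3K27ac and 36 IgG counts). Apob and Apoa1, of lipoproteins, held 40 and 42 H3K27me3 counts and 60 and 57 H3K27ac counts, beside 42 and 34 in IgG. By symbol, 1408 of 1410 olfactory receptor, all 591 vomeronasal receptor, 73 of 73 defensin and 110 of 113 keratin windows were unmarked. All 58 clustered protocadherin windows were unmarked, although these genes act in neurons. Reads of near-identical copies in such families may be lost or shared, and the olfactory windows held a median of 15.6 CPM of IgG, so the window was not free of reads.

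Markers of other cell types were mostly repressed or unmarked. Of 16 endothelial markers 8 were repressed and 8 unmarked: the transcription factor genes Fli1, Sox17 and Sox18 held 1079, 1445 and 1001 H3K27me3 counts, while Vwf and Tek held 19 and 27. Of 15 erythroid markers Tal1 (1423) and Epor (388) were repressed and 13 were unmarked. Of 16 mesenchyme and pericyte markers 5 were repressed, among them Foxc2 (1252), and 1 was mixed, Prrx1. Of 14 oligodendrocyte markers 6 were repressed, among them Olig2 (986) and Pdgfra (689). Of 12 astroglial markers 7 were unmarked, 2 repressed, 2 mixed and 1 active. No marker of the endothelial, microglial, erythroid and oligodendrocyte lists was active or mixed. Their median H3K27ac levels, 19.3, 23.1, 11.3 and 23.9 CPM, lay below their IgG levels of 27.3, 24.1, 17.7 and 27.6 CPM. The same held over all windows (13.4 against 17.7 CPM) and over unmarked protein-coding windows (17.0 against 19.8). It did not hold over all protein-coding windows (25.2 against 17.7 CPM). Of these, 9.02% were repressed, 25.4% active, 3.42% mixed and 62.2% unmarked.

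The 4 classes also differed in the kind of gene. Protein-coding genes made up 69.2% of repressed, 78.0% of active, 71.6% of mixed and 29.9% of unmarked windows, and pseudogenes 18.5% of unmarked but at most 1.65% of marked windows. The median span of a protein-coding gene was 21.2 kb in the repressed, 24.1 kb in the active, 18.6 kb in the mixed and 14.9 kb in the unmarked class.

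RNA-Pol2, which the class rule did not use, was highest in the classes with H3K27ac. Its median was 31.0 CPM at active and at mixed windows, 22.6 CPM at repressed and 13.3 CPM at unmarked windows. Its summits lay in 27.5% of active windows, 25.9% of mixed, 2.65% of repressed and 1.04% of unmarked windows, against 4.92% of all windows. The log2 ratio of RNA-Pol2 to IgG was 1.09 at active and 0.11 at repressed windows, but IgG is also part of the class rule. Within the active class the RNA-Pol2 median went with the quartile of H3K27ac, from 20.1 CPM in the lowest quartile to 43.9 CPM in the highest. The IgG median rose too, from 9.91 to 18.4 CPM. The log2 ratio of RNA-Pol2 to IgG went only from 1.03 to 1.25 between these quartiles. Within the repressed class the RNA-Pol2 median was 20.1 to 24.6 CPM in all 4 quartiles of H3K27me3. Across all windows Spearman's rho of H3K27ac with RNA-Pol2 was 0.86, that of H3K27me3 with RNA-Pol2 was 0.79, and that of H3K27ac with H3K27me3 was 0.78. Among protein-coding windows these 3 values were 0.83, 0.65 and 0.57. The rho of IgG over all windows was 0.51 with H3K27me3, 0.43 with H3K27ac and 0.50 with RNA-Pol2. The windows are the same in all of these libraries, and what else they share was not tested.

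Eed, measured by cross-linked immunoprecipitation against its own input, did not separate repressed from active promoters. Its median was 46.1 CPM at repressed (quartiles 16.7 and 77.6), 47.6 at active (20.3 and 74.0), 59.3 at mixed and 4.56 at unmarked windows, beside 22.6, 25.5, 26.5 and 16.7 CPM of input. Eed summits lay in 77.9% of repressed, 83.1% of active, 81.8% of mixed and 16.4% of unmarked windows, against 29.1% of all. Inside the repressed class the log2 ratio of Eed to input went from 0.71 in the lowest to 1.24 in the highest quartile of H3K27me3. Inside the active class it went from 0.15 to 1.15 with H3K27ac. The Hox genes had a median of 44.1 CPM of Eed, and the proteasome, splicing and translation genes 46.1 CPM.

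**Figure D4:**
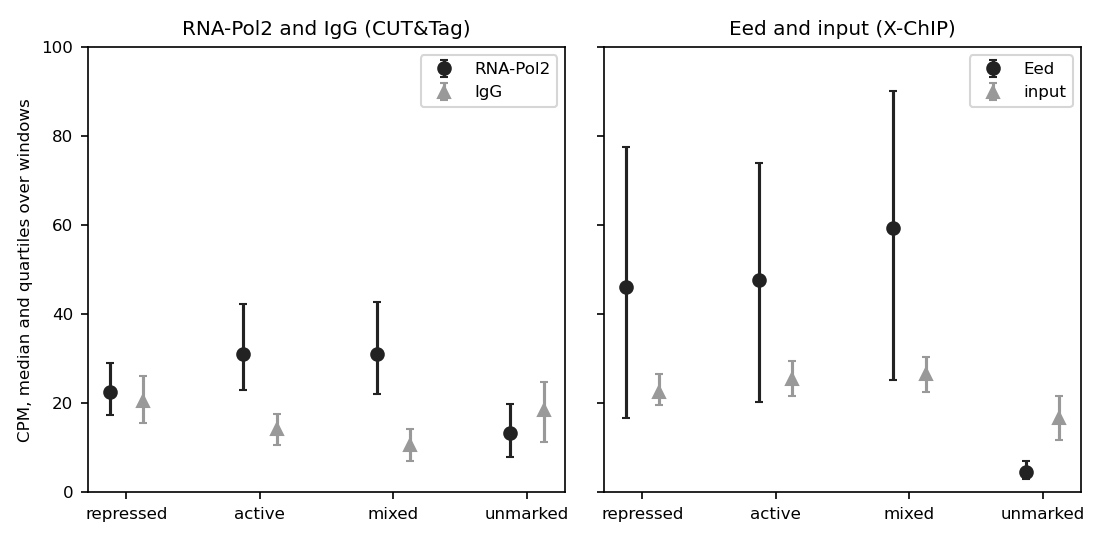
Median CPM with quartiles over the windows of each class for RNA-Pol2 and IgG (left) and for Eed and input (right), 1 library each. RNA-Pol2 stands above IgG at active and mixed windows (31.0 against 14.2 and 10.6 CPM), and Eed stands above input in all 3 marked classes but not at unmarked windows (4.56 against 16.7 CPM).

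The authors' summits gave a second, partly different division, with 61.7% of repressed, 55.1% of active and 21.5% of mixed windows in the same class. There were 10662 H3K27me3 and 8229 H3K27ac summits, and 5.97% of the first and 7.79% of the second lay within 500 bp of a summit of the other mark. H3K27ac summits gathered at start sites, 54.1% within 1 kb against 30.1% of H3K27me3 summits. The next summit of the same mark was 3.30 kb away for H3K27me3 at the median and 28.9 kb away for H3K27ac. By summits inside the window, 2872 windows (5.19%) held only H3K27me3, 5011 (9.05%) only H3K27ac and 672 (1.21%) both. Of the 2790 windows repressed by level, 15 held only an H3K27ac summit and 1016 held neither.

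Inside protein-coding windows both marks lay mostly downstream of the start. In repressed windows H3K27me3 summits had a median position of 292 bp downstream, with 75.2% of 1371 downstream. In active windows H3K27ac summits lay 113 bp downstream at the median, with 64.9% of 3546 downstream. Of the H3K27ac summits, 42.8% lay within 200 bp of the start, against 29.4% of the H3K27me3 summits. Over all windows with summits of both marks, the closest pair was 174.5 bp apart at the median (672 windows).

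**Figure D5:**
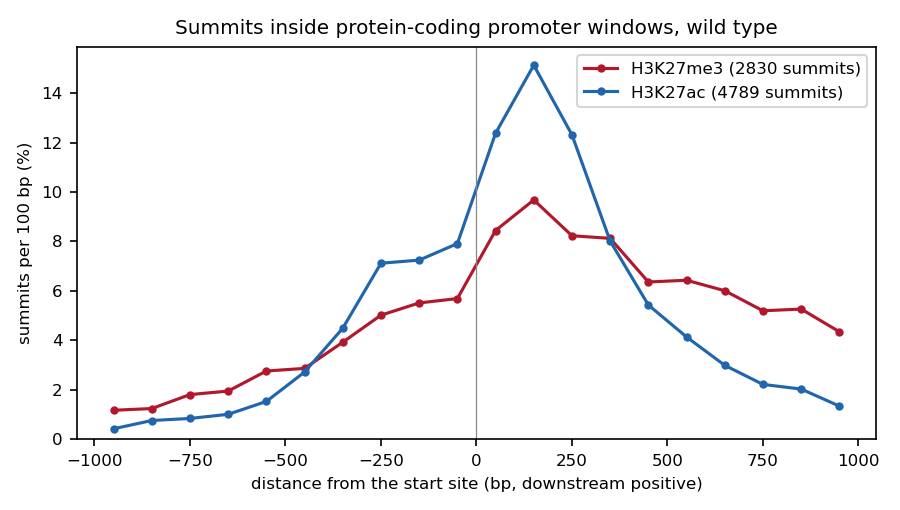
Position of H3K27me3 (2830) and H3K27ac (4789) summits relative to the start site inside protein-coding windows, in 100 bp bins as percent of each mark's summits. H3K27ac peaks in the bin centred 150 bp downstream (15.1%), and H3K27me3 is broader, with 9.68% in that bin.

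Genes beside the thresholds show how close the classes lie. Iqsec1, with 133 H3K27me3 and 29 IgG counts, was just inside the 2-fold rule and Ror1, with 146 and 32, just outside. For H3K27ac, Cpne5 (46 and 16) was inside and Rhot1 (57 and 20) outside. At the CPM limit Ap1g1 (32 H3K27me3 counts) and H2ac10 (20 H3K27ac counts) were inside and H3f3b (31) and Sh2d1a (19) outside.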

How the data were processed

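Libraries were aligned with Bowtie2 2.4.1 to mm10 and summits called with MACS2 2.2.7.1, per the submitters' processing notes. The sources used here give no filter on duplicates or mapping quality, and reads lost or kept at repeats can move the counts of gene copies. The authors deposited whole-number counts per promoter window in 1 table per library, named for RPKM but holding counts. They also deposited summit lists per library with a −log10 score, used only as positions and for a minimum of 10 in an alternative. Whether that score is from a p-value or a q-value is not given in the sources used here. Tools named without a stated role were deepTools 3.4.0 and ChIPseeker 1.22.1.

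Counts were divided by the library total (python 3.11.15, numpy 2.4.6, pandas 2.3.3, scipy 1.17.1, matplotlib 3.10.9), and 1 CPM was added before ratios. Windows keep the files' symbols; 39238 matched the RefSeq gene table of GRCm38.p6. The text names the 10 most extreme protein-coding genes of each marked class, genes beside each threshold, and up to 6 members of each of 30 lists by absolute ratio with up to 4 outside the commonest class. Gene models named Gm or Rik, microRNA, olfactory and vomeronasal receptor genes were left out of the ranking. Some genes that the rule names are not reported here. Members and lists were chosen with earlier results of these data known. With 1 library a mark, no test was run. Intervals and the floor of 3 counts for a count of 0 cover counting error only; the reads carry no stated molecular identifiers. The class script was tested on simulated data. The planned comparison of promoter sequence by class was void, since 58.1% of protein-coding windows matched a promoter and 80% were needed. Alternatives changed the scaling, added CPM, level and fold limits, control library, summit rules and window set.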

Additional observations from a re-analysis of the deposited data

Results flagged for a closer look

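A pair of mutant libraries outside the comparison carried a signal above their own IgG control. The library labelled EedcKO H3K27ac had a median log2 ratio to EedcKO IgG of 2.54 at the promoters repressed in wild type, and of -1.02 at those active in wild type. The library labelled EedcKO H3K27me3 had a median log2 ratio of 0.53 at the wild type active promoters and of -0.14 at the wild type repressed ones. In wild type the repressed promoters had a median log2 ratio to IgG of 2.39 for H3K27me3, and the active ones of 1.5 for H3K27ac. Each of the 2 mutant libraries thus stood above IgG where the other mark did in wild type, and whether their labels are exchanged was not tested, so the values are given by label only. Neither mutant library entered a comparison here, and the difference between genotypes was not tested.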

How the results depend on the processing

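Repressed counts stayed within 1.5 times of 2790 under every alternative, but reached 4173 with both marks and IgG scaled to the same median. The RNA-Pol2 and Eed differences given below kept their sign, but which mark was higher at more windows changed with the scaling. Active windows, 6970, numbered 3333 at 3 times IgG and 4073 with EedcKO IgG. Mixed windows, 1022, numbered 5582 with both marks and IgG scaled to the same median, 575 with 5 CPM added, 235 at 3 times and 2442 at 1.5 times IgG, 163 with EedcKO IgG, 672 from summits, and 1545 at 30 CPM without a control, a setting chosen after seeing the data. Unmarked windows numbered 13322 among protein-coding genes. Windows with H3K27me3 at least 2-fold higher by totals, 3944, became 7375 with equal medians, 2003 at 4-fold and 2278 among protein-coding genes; for H3K27ac, 16657 became 6221, 2603 and 9088. Summits within 500 bp of the centre gave 1876 repressed and 443 mixed windows, and a score of at least 10 gave 931 active and 28 mixed windows. The log2 ratio of RNA-Pol2 to IgG, higher by 0.98 at active than repressed windows, differed by 0.85 from summits, 1.28 at 3 times IgG, 0.60 with equal medians and 0.70 at 30 CPM. The log2 ratio of Eed to input, higher by 2.4 at repressed than unmarked windows, differed by 1.89 with equal medians and 2.29 at 30 CPM. By commonest class, which can fall short of a majority, 9 of 30 lists were repressed (2 from summits). A further 9 were active (4 from summits, 1 at 3 times IgG, 5 with equal medians). Of the rest, 1 was mixed (0, 0 and 11 in the same settings) and 11 unmarked (24, 20 and 6). The endothelial list (8 repressed and 8 unmarked) counts here as repressed and the cell cycle list (18 active and 18 unmarked) as active. Summits within reach of the other mark, 5.97% of H3K27me3 and 7.79% of H3K27ac, were 3.58% and 4.64% within 200 bp, 7.39% and 9.61% within 1000 bp, and 0.427% and 2.13% at a score of at least 10. Runs of repressed windows numbered 77 rather than 144 with non-overlapping windows, as fewer windows were counted. The other causes were not tested. No paired analysis was possible because each group had 1 library. At the median window 26 counts of each mark limit what a single ratio can show.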
